A study of Mus musculus with 6 samples.

Results

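The genes of cholesterol and fatty acid synthesis were examined in mouse embryonic stem cells that lack glycogen synthase kinase-3 (Gsk-3), through loss of both of its genes, against wild-type cells. The set was defined by pathway, not by measured values, although it was chosen with earlier results of these data known. Genes named on the array number 18193, and the set holds 38 genes. It comprises 5 SREBP factors and their regulators, 20 genes of sterol synthesis and handling and 13 genes of fatty acid synthesis, elongation and desaturation. Acat2 and Soat1 were not analysed here. The other 36 genes had 85 probe sets, and 72 of these were bright enough to test, with at least 1 for every gene.

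The knockout cells, called DKO below, carried the genotype Gsk-3a-/-; Gsk-3b-/-, and their reference was the line E14K, labelled wild-type. The labels list 3 samples of total RNA for each genotype, each on its own Affymetrix array. Both genotypes were grown without feeder cells on gelatin, in high-glucose medium with 15% fetal bovine serum and leukaemia inhibitory factor at 1000 units/ml. The labels do not say how many independent lines or clones each genotype represents, or whether replicates were separate cultures. The p-values therefore reflect the variation among these 3 and 3 samples alone, part or all of which may be technical, and differences between the lines other than the loss of Gsk-3 cannot be told apart from it.

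Sterol regulatory element-binding proteins (SREBPs) are membrane-bound transcription factors that are held in the endoplasmic reticulum by the escort protein Scap and the Insig proteins while sterols are plentiful. When sterols fall, Scap carries them to the Golgi, where they are cut, and the released part enters the nucleus and activates genes of cholesterol synthesis (mainly Srebf2) or fatty acid synthesis (mainly Srebf1). In the nucleus, Gsk-3 is known to phosphorylate mature SREBPs and so mark them for degradation through the ubiquitin ligase Fbw7. The same kinase lies downstream of insulin and PI3K signalling, which raises lipid synthesis in many cell types.

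Median intensities of the 6 arrays were 10 to 11 and upper quartiles 130 to 140. The 18 hybridisation control probe sets separated the arrays by replicate number: in replicate 3 they averaged 9.84 log2 units for DKO and 10.22 for wild-type, whereas the remaining 4 arrays gave 1.68 to 1.83. The ratio of 3' to 5' signal for the control transcripts Actb and Gapdh, which reflects RNA integrity, was 0.60 to 1.19 log2 units in DKO and 0.41 to 0.99 in wild-type cells, and was lowest in replicate 3 of each genotype. Gsk3a had a log2 difference (DKO minus wild-type) of -1.38 that did not pass (limma, adjusted p = 0.0942; adjusted p = 0.00646 in a fit that took the replicate numbers as blocks), and 0 of 5 probe sets of Gsk3b passed with or without the block. Whether these probe sets lie in the deleted parts was not known here. All 11 embryonic stem cell markers were expressed and summed to intensities of 30914 to 34109 in DKO and 32273 to 34395 in wild-type cells. The 11 fibroblast markers summed to 452 to 531 in DKO and 513 to 667 in wild-type cells, with Col3a1, Col6a3, Lum and Postn under an intensity of 16 on every array. Of the 4 tested fibroblast markers 2 were above 0, up to 0.75, and the others below. The largest difference was in Col1a1, with every DKO array below every wild-type array (-1.34, limma, adjusted p = 0.0805, and 0.00506 with the replicate block). The 14 markers of primitive and visceral endoderm, a tissue active in lipid transport, summed to 3160 to 5828 in DKO and 1508 to 4975 in wild-type cells; the secreted products Afp, Ttr, Apoa1, Apoa4 and Apob were under 16 on every array, and the part of such cells in the results below was not tested. Of the 9 tested endoderm markers 5 were above 0 and 4 below, from -1.45 (Dab2) to 1.26 (Foxa2), and 0 passed with all arrays; on replicates 1 and 2 alone Dab2 and Cubn, named after their values were seen, passed as lower in DKO (adjusted p = 0.00579 and 0.027).

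Most of the 36 genes read slightly higher in DKO than in wild-type cells, but none of the differences passed the test over all probe sets. Further sterol pathway and fatty acid synthesis genes outside the set, given below, were not mostly above 0. By limma, 0 of 36 genes passed an adjusted p of 0.05, whereas 434 of all 10496 tested genes did (4.13%), 1.64% higher and 2.5% lower in DKO. At an unadjusted p under 0.05 there were 6, all higher in DKO (Sqle, Tm7sf2, Ebp, Me1, Elovl6 and Fads1), against 726 of 10496 genes higher (6.92%) and 816 lower (7.77%). A linear model without moderation of the variances also called 0 of the 36, and 22 of all genes (0.21%). At an unadjusted p under 0.05 that model had 3 of the 36 (Sqle, Tm7sf2 and Ebp, all higher), against 5.34% of all genes higher and 6.95% lower. A fitted difference of at least 1.5-fold was found for 7 of the 36 genes, all higher (the 6 above and Nsdhl), against 9.85% of all genes higher and 9.85% lower. The fitted difference was above 0 for 30 of the 36 genes and for 5220 of 10496 genes (49.7%). The median log2 difference was 0.27 over the 36 genes, 0.31 over the 18 sterol genes, 0.21 over the 13 fatty acid genes and 0.15 over the 5 regulators, beside a median of -0.0025 over all tested genes. The arrays are of bulk RNA, in which more cells with a transcript and more transcript per cell cannot be told apart.

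The size of this shift depended on single arrays. The median over the 36 genes was 0.185 with either wild-type replicate 3 or DKO replicate 2 left out. It was 0.47 when DKO replicate 3 was left out. The median over the sterol genes was then 0.61, and it was 0.50 with wild-type replicate 1 left out, 0.20 with DKO replicate 2 left out and 0.18 with wild-type replicate 3 left out. The median over the regulators was 0.32 with DKO replicate 1 left out, 0.074 with wild-type replicate 1 left out and 0.29 with the probe sets of a gene averaged. That over the fatty acid genes was 0.15 with DKO replicate 2 left out and 0.34 with averaged probe sets. Genes at least 1.5-fold higher numbered 14 with DKO replicate 3 left out, and 5 to 9 with each other array left out. Between 25 and 30 of the 36 genes lay above 0 when each of the 6 arrays was left out in turn. In all 3 same-numbered pairs of arrays, 15 of the 36 genes were higher in DKO (41.7%), as were 2205 of all genes (21%); 1 of the 36 was lower in all 3 pairs, as were 2378 of all genes (22.7%).

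**Figure D1:**
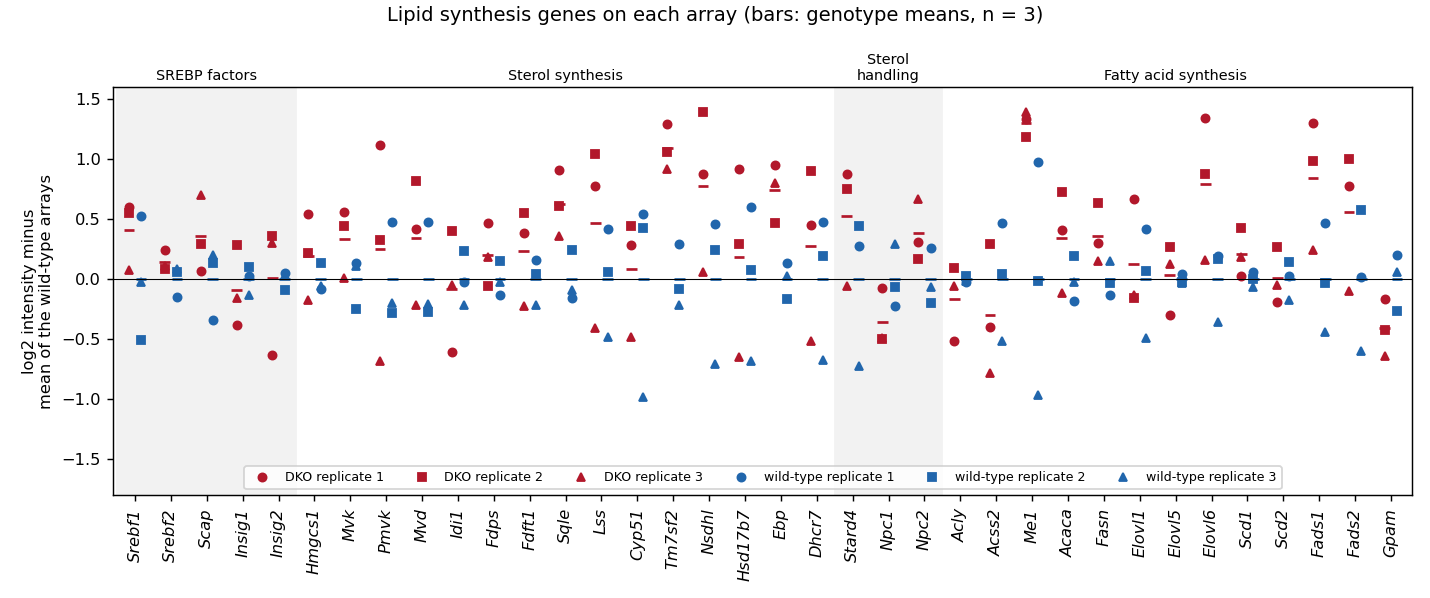
Log2 intensity of each of the 36 genes on each of the 6 arrays, relative to the mean of the 3 wild-type arrays of that gene; red symbols are DKO and blue symbols wild-type, symbol shape gives the replicate number, and short bars are genotype means. Tm7sf2, Ebp, Sqle and Me1 show all red points above all blue points by visible distances, whereas most genes overlap, and replicate 3 (triangles) is the low array in both genotypes for Lss, Cyp51, Nsdhl, Hsd17b7 and Dhcr7.

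The same-numbered arrays of the genotypes deviated together over all tested probe sets, so the replicate number was also fitted as a block. In that fit 5 of 36 genes passed, all higher in DKO: Tm7sf2 and Ebp of sterol synthesis, and Me1, Elovl6 and Fads1 of the fatty acid branch. Over all genes the block called 1123 of 10496 (10.7%), 5.07% higher and 5.63% lower. With replicate 3 against replicates 1 and 2 as the block, 1 of 36 passed (Tm7sf2), against 687 of all genes (6.55%; 2.75% higher and 3.79% lower), and on replicates 1 and 2 alone 0 of 36 passed, against 296 (2.82%). In 5 genes every array of one genotype lay beyond every array of the other, all higher in DKO (Srebf2, Sqle, Tm7sf2, Ebp and Me1), where 891 of all genes did not overlap in that direction (8.49%) and 1089 in the other (10.4%).

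**Figure D2:**
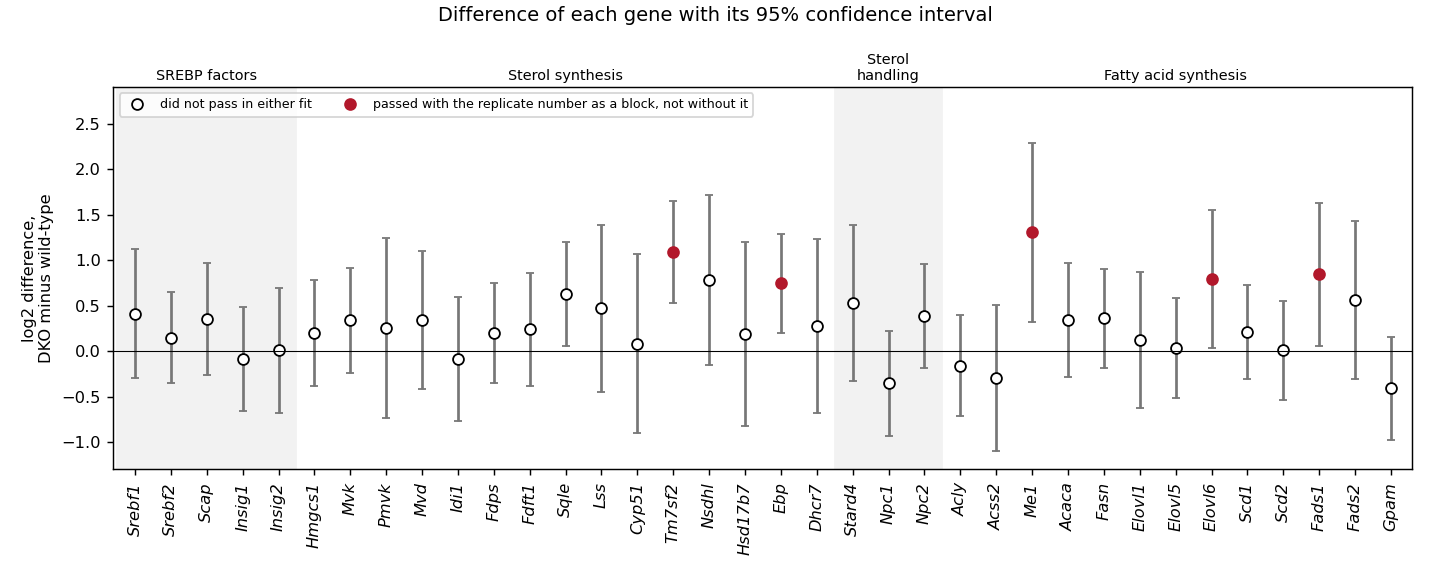
Fitted log2 difference, DKO minus wild-type, of each gene (n = 3 arrays per genotype) with its 95% confidence interval from limma without a block; filled points passed an adjusted p of 0.05 with the replicate number as a block and open points did not. The filled points, Tm7sf2, Ebp, Me1, Elovl6 and Fads1, lie between 0.74 and 1.31, and the intervals of 19 of the 36 genes lie wholly within 1 log2 unit of 0.

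The SREBP factors and the proteins that hold or release them had no call in any fit. Srebf2, the main activator of cholesterol genes, read 8.76, 8.60 and 8.62 log2 units on the DKO arrays and 8.37, 8.58 and 8.60 on the wild-type arrays. These groups did not overlap, but pairs 2 and 3 differed by only 0.026 and 0.022, and the difference of 0.15 had a 95% interval of -0.35 to 0.65 (adjusted p = 0.884). The second, fainter probe set of Srebf2 read 7.81, 7.38 and 7.35 in DKO and 6.87, 7.28 and 7.08 in wild-type cells, again without overlap. Its difference was 0.44 (interval -0.12 to 0.998, limma, adjusted p = 0.547, and 0.315 with the replicate block). Srebf1, the main activator of fatty acid genes, read 7.60, 7.55 and 7.08 in DKO and 7.53, 6.49 and 6.98 in wild-type cells. Its groups overlapped, and with a low wild-type replicate 2 the pairs differed by 0.069, 1.06 and 0.10 (difference 0.41, interval -0.30 to 1.12, adjusted p = 0.708). Scap, the escort protein, had a difference of 0.36 (-0.26 to 0.97, adjusted p = 0.706) and was higher in DKO in each same-numbered pair, by 0.41, 0.16 and 0.51.

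Insig1, which retains Scap and is itself induced by SREBPs, read 11.88 ± 0.34 in the DKO cells and 11.97 ± 0.12 in the wild-type cells (SD, n = 3), a difference of -0.084 (-0.66 to 0.49, adjusted p = 0.952). Insig2, a second retention protein, differed by 0.010 (-0.68 to 0.70, adjusted p = 0.997). On this brightest probe set of Insig2 the DKO arrays spread more widely, at 7.69, 8.69 and 8.63, than the wild-type arrays, at 8.38, 8.23 and 8.36. Its other tested probe sets differed by 0.34 and 0.095 (limma, adjusted p = 0.696 and 0.95). The SD on the first of these was 0.22 in DKO and 0.26 in wild-type cells, and on the second 0.39 and 0.23. A difference of 2-fold lay outside the interval of each regulator except Srebf1.

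The early steps of sterol synthesis, which lead from acetyl-CoA through mevalonate to squalene, showed differences between -0.084 and 0.34, and none passed in any fit. Hmgcs1, the synthase that makes HMG-CoA, read 12.42, 12.10 and 11.70 in DKO and 11.79, 12.01 and 11.82 in wild-type cells. The groups overlapped, with a difference of 0.20 (-0.39 to 0.78, adjusted p = 0.862), and the other 4 tested probe sets of the gene lay between -0.17 and -0.065. Mvk (mevalonate kinase), Pmvk (phosphomevalonate kinase) and Mvd (mevalonate diphosphate decarboxylase) had differences of 0.34 (-0.24 to 0.91), 0.25 (-0.74 to 1.24) and 0.34 (-0.41 to 1.10). Idi1, the isomerase of isopentenyl diphosphate, differed by -0.084, and the prenyl and squalene synthases Fdps and Fdft1 by 0.20 and 0.24. Adjusted p-values of these 7 genes, Hmgcs1 included, lay between 0.702 and 0.962.

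From squalene on, the differences ran from 0.083 (Cyp51) to 1.09 (Tm7sf2) on the probe set with the highest mean, although Lss, Cyp51 and Hsd17b7 each also had a fainter probe set below 0, at -0.21, -0.040 and -0.058. Sqle, squalene epoxidase, a rate-limiting enzyme of the later pathway, read 10.22, 9.91 and 9.67 in DKO and 9.15, 9.54 and 9.21 in wild-type cells. The groups did not overlap, and the difference of 0.63 (SE 0.25, interval 0.06 to 1.20, a 1.55-fold difference) did not pass (adjusted p = 0.314; 0.123 with the replicate block). Lss, which closes squalene epoxide into lanosterol, differed by 0.47 (-0.45 to 1.39, adjusted p = 0.757). Cyp51, the lanosterol demethylase, differed by 0.083 (-0.90 to 1.07) and did not pass either. The arrays of Cyp51 ran at 10.96, 11.12 and 10.20 in DKO and 11.22, 11.11 and 9.70 in wild-type cells, so that replicate number separated them more than genotype did.

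Tm7sf2, a sterol C14-reductase that acts next to the lamin B receptor on the same reaction, had the lowest adjusted p of the 36 genes. It read 6.46, 6.23 and 6.09 in DKO and 5.46, 5.09 and 4.95 in wild-type cells. Every DKO array lay above every wild-type array, and the same-numbered pairs differed by 1.00, 1.14 and 1.13. The difference of 1.09 (SE 0.25, interval 0.53 to 1.65, a 2.13-fold difference) narrowly missed the threshold (limma, adjusted p = 0.0508) and passed with the replicate block (adjusted p = 0.00809). Over 15 alternative settings its adjusted p ran from 0.00809 to 0.212 and passed in 4. Among these 4 was a log2 filter of 6, which kept Tm7sf2 only through its DKO arrays. Another was the averaging of probe sets, which could not change the values of its 1 tested probe set.

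Ebp, the sterol isomerase that acts further along the pathway, read 9.68, 9.19 and 9.53 in DKO and 8.86, 8.56 and 8.75 in wild-type cells. The groups did not overlap, and the pairs differed by 0.82, 0.63 and 0.78. The difference of 0.74 (SE 0.24, interval 0.20 to 1.29, a 1.67-fold difference) had an adjusted p of 0.185, and 0.0484 with the replicate block. Nsdhl, a sterol decarboxylase encoded on the X chromosome like Ebp, had a difference of 0.78 (SE 0.41, interval -0.16 to 1.71), but its arrays overlapped. It read 8.84, 9.35 and 8.02 in DKO and 8.42, 8.20 and 7.25 in wild-type cells (adjusted p = 0.506; 0.0584 with the replicate block). Its difference was 0.42 with wild-type replicate 3 left out and 0.47 with DKO replicate 2 left out, both under 1.5-fold. Hsd17b7, which completes removal of the C4 methyl groups, and Dhcr7, the last reductase before cholesterol, differed by 0.19 (-0.82 to 1.20, adjusted p = 0.934) and 0.28 (-0.67 to 1.23, adjusted p = 0.885).

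Promoter stretches are shown for the genes called with the replicate block that had a window in the RefSeq promoter table (Tm7sf2, Ebp, Me1 and Elovl6), for Hmgcs1, the only one of the 28 genes with a window that had a match to the sterol regulatory element (SRE) core, and for Cyp51, which differed most between replicate 3 and the other arrays. Each is the 150 bases before the RefSeq start site, 5′ to 3′ on the strand of the gene (build GRCm38.p6). Capitals mark the SRE core, TCACNCCAC, the NF-Y box, CCAAT, and the GC box, GGGCGG, on either strand; none of these patterns contains another, and 2 GC boxes adjoin in Me1. The stretches lie at chr19:6067851-6068000 on the minus strand for Tm7sf2, chrX:8193513-8193662 minus for Ebp, chr9:86695915-86696064 minus for Me1, chr3:129532236-129532385 plus for Elovl6, chr13:119690201-119690350 plus for Hmgcs1 and chr5:4104698-4104847 minus for Cyp51.
Tm7sf2: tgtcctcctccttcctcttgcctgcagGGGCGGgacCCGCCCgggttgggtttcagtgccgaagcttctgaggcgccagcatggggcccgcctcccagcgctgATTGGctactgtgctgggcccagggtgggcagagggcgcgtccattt
Ebp: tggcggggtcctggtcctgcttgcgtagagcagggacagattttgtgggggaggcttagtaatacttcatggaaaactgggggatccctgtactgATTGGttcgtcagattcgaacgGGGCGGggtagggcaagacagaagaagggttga
Me1: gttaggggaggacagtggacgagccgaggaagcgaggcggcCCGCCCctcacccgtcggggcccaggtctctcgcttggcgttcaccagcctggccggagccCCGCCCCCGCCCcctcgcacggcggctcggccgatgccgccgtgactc
Elovl6: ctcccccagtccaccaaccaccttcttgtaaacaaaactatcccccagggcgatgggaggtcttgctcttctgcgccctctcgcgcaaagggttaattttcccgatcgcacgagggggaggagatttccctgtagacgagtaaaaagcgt
Hmgcs1: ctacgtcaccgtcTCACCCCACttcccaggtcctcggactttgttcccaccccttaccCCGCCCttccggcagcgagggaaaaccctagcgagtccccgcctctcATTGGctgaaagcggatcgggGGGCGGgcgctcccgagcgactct
Cyp51: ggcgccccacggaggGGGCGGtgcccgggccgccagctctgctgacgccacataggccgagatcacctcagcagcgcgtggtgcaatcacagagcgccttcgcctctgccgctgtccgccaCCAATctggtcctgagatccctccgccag

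Of the 36 genes, 28 had promoter windows, 39 in all, each of 300 bases that reach from 250 before to 50 after a start site. The NF-Y box was found in 25 of these 39 windows (64.1%) and in 37.4% of all 32851 windows of the same length. The GC box was found in 28 of 39 (71.8%, against 35.7% of all windows), the E-box CACGTG in 6 (15.4%, against 7.15%) and the SRE core in 1 (2.56%, against 1.24%). All windows were not limited to genes tested in these cells, as those of the set were, and some genes had several windows. The part of this in the shares was not tested. NF-Y and the GC-box factor Sp1 are known partners of SREBPs at lipid genes. Tm7sf2 and Ebp each had 1 NF-Y box in the 150 bases shown, Me1 had only GC boxes, and Elovl6 had none of the marked patterns there. A match describes the letters and is not a measured binding site.

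Of the sterol handling genes, none passed in any fit on the probe set with the highest mean. Stard4, a cytosolic sterol carrier, read 9.17, 9.04 and 8.23 in DKO and 8.57, 8.73 and 7.57 in wild-type cells. It was higher in DKO in each same-numbered pair, by 0.60, 0.31 and 0.66, while the groups overlapped (difference 0.53, interval -0.33 to 1.38, adjusted p = 0.68). The difference of Stard4 was 0.17 with wild-type replicate 3 left out, 0.35 with DKO replicate 1 left out and 0.82 with DKO replicate 3 left out, and its other tested probe sets differed by 0.42 and 0.088. Npc1 and Npc2, which together move cholesterol out of lysosomes, pointed in opposite directions, at -0.35 (-0.93 to 0.22) and 0.39 (-0.18 to 0.96), and neither passed (adjusted p = 0.679 and 0.635).

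In the fatty acid branch the enzymes that supply and build palmitate had no call in any fit on the probe set with the highest mean, and the NADPH source Me1 had one in some fits. Acly, which makes cytosolic acetyl-CoA from citrate, read 11.94 ± 0.32 in the DKO cells and 12.10 ± 0.03 in the wild-type cells (SD, n = 3), a difference of -0.16 (-0.72 to 0.40, adjusted p = 0.886). Acss2, which makes it from acetate, differed by -0.29 (-1.10 to 0.51, adjusted p = 0.85). Acaca, the carboxylase that commits acetyl-CoA to fatty acid synthesis, had a difference of 0.34 (-0.29 to 0.97, adjusted p = 0.735). Fasn, fatty acid synthase, read 9.42, 9.75 and 9.27 in DKO and 8.99, 9.09 and 9.27 in wild-type cells. The highest wild-type array of Fasn equalled the lowest DKO array to within 2 decimals, both in replicate 3 (difference 0.36, interval -0.18 to 0.90, adjusted p = 0.644).

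Me1, the cytosolic malic enzyme that yields NADPH for lipid synthesis, had the largest difference of the 36 genes. It read 10.35, 10.21 and 10.41 in DKO and 10.00, 9.01 and 8.06 in wild-type cells. The DKO arrays lay close together and above all wild-type arrays, which spread over almost 2 log2 units. The difference of 1.31 (SE 0.43, interval 0.33 to 2.29, a 2.47-fold difference) did not pass (adjusted p = 0.197), and passed with the replicate block (adjusted p = 0.0375) and without wild-type replicate 1 (difference 1.79, adjusted p = 0.028). It was 0.78 on replicates 1 and 2 alone (adjusted p = 0.475) and 0.82 when wild-type replicate 3 was left out (adjusted p = 0.356). The second probe set of Me1 read 9.16, 7.73 and 8.57 in DKO and 7.71, 6.88 and 5.93 in wild-type cells, again without overlap, with a difference of 1.65 (adjusted p = 0.144; 0.0095 with the replicate block). Beside these values, the endoderm marker Gata4, named after its values were seen, read 9.51, 8.82 and 9.87 in DKO and 9.56, 8.47 and 7.32 in wild-type cells, likewise lowest in wild-type replicate 3. It was picked from 9 tested endoderm markers, of which 5 were above 0 in DKO and the others below. The largest difference among them was lower in DKO (Dab2, -1.45). The part of Gata4 or of endoderm cells in the Me1 difference was not tested.

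Among elongases and desaturases, read on the probe set with the highest mean, Elovl6 and Fads1 passed with the replicate block and the others did not. Elovl6, which lengthens palmitate to stearate, read 11.67, 11.20 and 10.49 in DKO and 10.52, 10.49 and 9.97 in wild-type cells, with a difference of 0.80 (SE 0.34, interval 0.04 to 1.56; adjusted p = 0.347, and 0.0499 with the replicate block). The lowest DKO array lay between the wild-type arrays on this probe set, whereas a second probe set did not overlap, at 8.02, 7.94 and 7.95 in DKO and 7.33, 7.0 and 7.14 in wild-type cells (difference 0.81, adjusted p = 0.11; 0.0344 with the block). The third tested probe set of Elovl6 overlapped and did not pass in either fit (difference 0.41, adjusted p = 0.794; 0.354 with the block). On the brightest probe set the difference was 0.52 with DKO replicate 1 left out. Elovl1 and Elovl5, elongases of saturated very-long-chain and of polyunsaturated fatty acids, differed by 0.13 and 0.035 (adjusted p = 0.941 and 0.982).

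Fads1, the delta-5 desaturase of polyunsaturated fatty acids, read 8.63, 8.32 and 7.58 in DKO and 7.80, 7.30 and 6.89 in wild-type cells. The groups overlapped through DKO replicate 3 and wild-type replicate 1, while the pairs differed by 0.83, 1.02 and 0.68 (difference 0.84, SE 0.35, interval 0.06 to 1.63; adjusted p = 0.328, and 0.0308 with the replicate block). The fainter tested probe set of Fads1 differed by 0.69 and did not pass in either fit (limma, adjusted p = 0.354, and 0.166 with the block). Wild-type replicates 1 and 2 lay under the filter of log2 4 there, so it was tested only through its DKO arrays. Fads2, the delta-6 desaturase and the neighbour of Fads1 on chromosome 19, differed by 0.56 (-0.31 to 1.43, adjusted p = 0.66). The fainter tested probe set of Fads2 differed by 0.77 (adjusted p = 0.191, and 0.0498 with the block). On the brighter probe set the Fads2 difference was 0.26 with wild-type replicate 3 left out, 0.34 with DKO replicate 2 left out, 0.85 with wild-type replicate 2 left out and 0.89 with DKO replicate 3 left out. Scd1 and Scd2, which make monounsaturated fatty acids, differed by 0.21 (-0.30 to 0.73) and 0.010 (-0.53 to 0.55) on their brightest probe sets (adjusted p = 0.823 and 0.996). Gpam, which begins glycerolipid synthesis in mitochondria, was the only one of the 36 genes that was lower in DKO in all 3 pairs (difference -0.41, interval -0.97 to 0.16, adjusted p = 0.597).

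**Figure D3:**
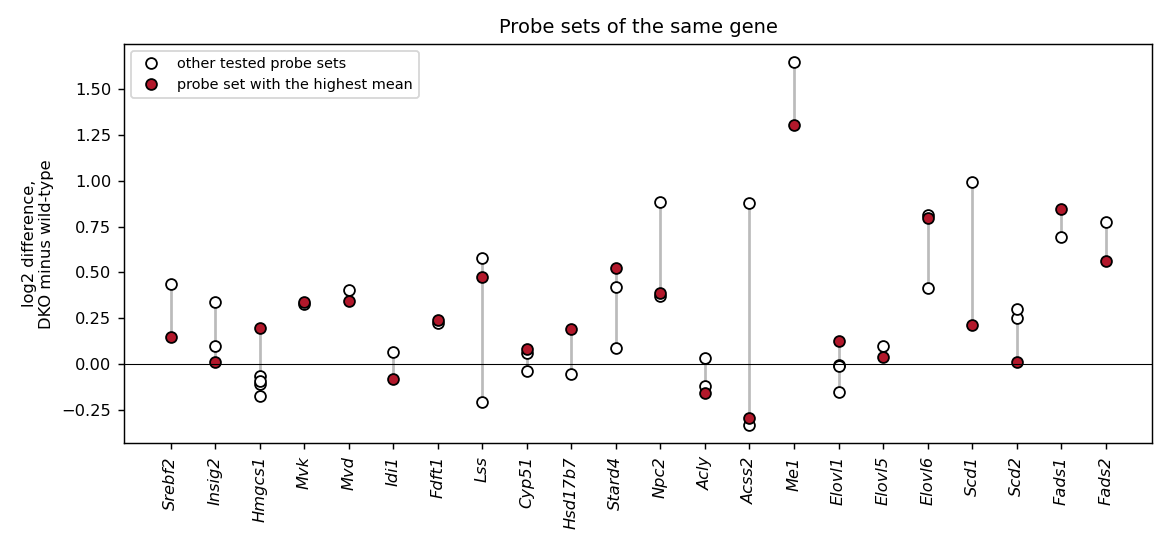
Log2 difference, DKO minus wild-type, of every tested probe set of the 22 genes with more than 1; filled points are the probe set with the highest mean, open points the others, and grey lines join the probe sets of a gene. The probe sets of Me1 and of Fads1 all lie above 0.6, whereas those of Acss2 span from -0.34 to 0.88.

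Probe sets of the same gene did not always give the same difference. Of the 22 genes with more than 1 tested probe set, 8 had values on both sides of 0 (Hmgcs1, Idi1, Lss, Cyp51, Hsd17b7, Acly, Acss2 and Elovl1), although 0 of the 72 tested probe sets passed without the block. Acss2 was the widest, with -0.34 and -0.29 on 2 probe sets and 0.88 on the other (adjusted p = 0.285; 0.0251 with the block). Scd1 read 0.21 on its brightest probe set and 0.99 on the other, whose arrays did not overlap at 8.92, 9.32 and 8.81 in DKO and 8.71, 7.75 and 7.61 in wild-type cells (adjusted p = 0.201; 0.0518 with the block). The faintest tested probe set of Npc2 differed by 0.88 (adjusted p = 0.602; 0.0303 with the block). Probe positions and cross-hybridisation, for example between Scd1 and Scd2, were not examined.

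Several late sterol genes varied with the replicate number in both genotypes, a contrast examined after the values by array had been seen. Cyp51 was lower in replicate 3 than in the mean of replicates 1 and 2 by 0.84 log2 units in DKO and by 1.47 in wild-type cells. Dhcr7 read 10.50, 10.95 and 9.53 in DKO and 10.52, 10.24 and 9.37 in wild-type cells, so that both replicate 3 arrays lay below the other 4. Hsd17b7 showed the same order, at 8.85, 8.23 and 7.29 in DKO and 8.54, 8.01 and 7.26 in wild-type cells, as did Lss, at 9.18, 9.45 and 8.01 in DKO and 8.83, 8.47 and 7.92 in wild-type cells. As a difference, the comparison gave -1.20 in DKO and -1.01 in wild-type cells for Dhcr7, -1.08 in DKO and -1.06 in wild-type cells for Nsdhl, and -1.25 in DKO and -1.02 in wild-type cells for Hsd17b7. For Lss it gave -1.31 in DKO and -0.73 in wild-type cells, and for Stard4 -0.87 in DKO and -1.08 in wild-type cells. These 6 genes, with Fads2, had adjusted p-values of 0.0605 to 0.0898 in limma with genotype and replicate 3 as terms, so that 0 of the 36 genes passed; over all 10496 genes, 13 passed as lower (0.124%) and 59 as higher (0.562%) in replicate 3. At an unadjusted p under 0.05, 11 of 36 genes were lower in replicate 3 and 0 were higher, against 903 (8.6%) and 1228 (11.7%) of all genes. Both replicate 3 arrays lay below the other 4 in 10 of 36 genes, 7 of them of the sterol branch, and in 1221 of all genes (11.6%). Both lay above the other 4 in 1643 of all genes (15.7%).

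Over the whole sterol branch, 15 of 18 genes were below 0 in replicate 3, averaged over the genotypes, as were 5046 of all 10496 genes. Of the 18 sterol genes, 7 had an unadjusted p under 0.05. Outside the 6 genes above, Pmvk differed by -0.85 (-1.40 in DKO and -0.30 in wild-type cells, adjusted p = 0.223), Mvd by -0.57, Fdft1 by -0.51 and Hmgcs1 by -0.32. Mvk, Idi1, Fdps, Sqle and Tm7sf2 lay between -0.29 and -0.026, and Ebp, Npc1 and Npc2 at 0.070, 0.12 and 0.17 (adjusted p = 0.506 to 0.968 for these 8 genes). A second, fainter probe set of Cyp51 passed this contrast, at -1.66 in DKO and -1.84 in wild-type cells (difference -1.75, adjusted p = 0.0476), the only one of the 72 tested probe sets to do so. The low replicate 3 was not limited to sterol genes. In the fatty acid branch 11 of 13 genes were below 0 on the probe set with the highest mean. Of these, 4 had an unadjusted p under 0.05 (Acss2, Elovl6, Fads1 and Fads2). Their other tested probe sets did not all follow, at -0.49 and 0.77 for Acss2 and -0.026 and 0.63 for Elovl6. Those of Fads1 and Fads2 lay at -0.0021 and -0.36. For the sterol gene Stard4 the other tested probe sets lay at -0.99 and 0.16. Of the 5 regulators 2 were below 0. Outside the set, 11 of 13 further sterol pathway genes and 9 of 18 further fatty acid synthesis genes were below 0.

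Of 12 genes of sterol efflux and LXR signalling outside the set, 7 were above 0 and 5 below in replicate 3, with 2 higher and 2 lower at an unadjusted p under 0.05 (Abca1, Lrp8 and Lipa are named here after their values were seen). The cholesterol exporter Abcg1 was higher in replicate 3 by 2.38 in DKO and 1.27 in wild-type cells (difference 1.82, adjusted p = 0.0476) and the exporter Abca1 by 1.39 in DKO and 0.72 in wild-type cells (difference 1.06, adjusted p = 0.0984). The lipoprotein receptor gene Lrp8 and the lysosomal lipase gene Lipa had differences of -1.22 and -1.14 (adjusted p = 0.0847 and 0.0951). Replicate 3 of each genotype also had the hybridisation control signal and the lowest 3' to 5' ratio given above, and the part of these in the replicate 3 values was not tested.

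**Figure D4:**
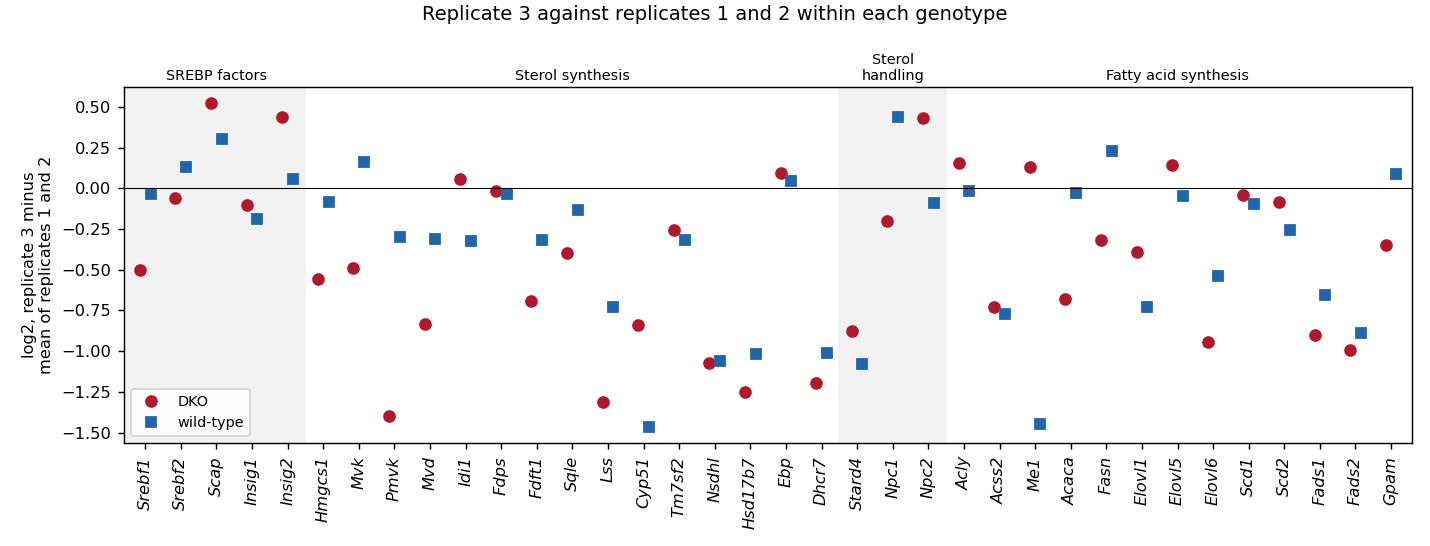
Log2 intensity of replicate 3 minus the mean of replicates 1 and 2 for each gene, with red circles for DKO and blue squares for wild-type cells (1 value per genotype, so no error is drawn). Lss, Cyp51, Nsdhl, Hsd17b7, Dhcr7 and Stard4 lie between -1.47 and -0.73 in both genotypes, whereas the SREBP factors and their regulators lie between -0.50 and 0.52.

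Other lipid genes, from 5 lists written by pathway, gave no call without the block. Of 13 further sterol pathway genes (SREBP proteases, remaining enzymes and regulators) 0 passed in either fit, 0 had an unadjusted p under 0.05 and 6 lay above 0. Their median was -0.02, with the largest difference in Mbtps2, the site-2 protease (-0.46, adjusted p = 0.683). Of 12 genes of sterol efflux and LXR signalling, with a median of 0.19 and 8 above 0, 0 passed by limma or by the unmoderated model, and 2 had an unadjusted p under 0.05. Abcg1 read 4.64, 5.17 and 7.29 in DKO and 7.65, 7.42 and 8.80 in wild-type cells, without overlap, a difference of -2.26 (SE 0.65, adjusted p = 0.127) that passed with the replicate block (adjusted p = 0.000923) and on replicates 1 and 2 alone (difference -2.63, adjusted p = 0.00667). Cyp27a1, the sterol 27-hydroxylase, named after its values were seen, also passed with the block (difference 1.5, adjusted p = 0.0644, and 0.01 with the block). It read 5.58, 4.52 and 5.46 in DKO and 4.09, 3.81 and 3.17 in wild-type cells. Wild-type replicates 2 and 3 lay under the filter of log2 4, so Cyp27a1 was tested only through its DKO arrays.

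Among 18 further fatty acid synthesis genes 0 passed by either model, 1 had an unadjusted p under 0.05 and 9 lay above 0, with a median of -0.0052. The largest difference was in Acsl5, an acyl-CoA synthetase (-1.01, adjusted p = 0.278; 0.0303 with the block), and the mitochondrial citrate carrier Slc25a1, named after its values were seen, passed only with the block (0.90, adjusted p = 0.0303 there). Of 17 glycerolipid genes 0 passed by either model, 4 had an unadjusted p under 0.05 and 11 lay above 0, with a median of 0.20. The acyltransferase Agpat3 had the largest difference (1.24, adjusted p = 0.189, and 0.00584 with the block). Of 13 genes of fatty acid oxidation 0 passed by either model, 3 had an unadjusted p under 0.05 and 11 lay above 0, with a median of 0.27. Cpt1a, which admits fatty acids to mitochondria, read 9.45, 9.99 and 9.69 in DKO and 8.95, 8.69 and 8.07 in wild-type cells. These groups did not overlap (difference 1.14, SE 0.29, adjusted p = 0.087; 0.0204 with the block). With the block, 1 gene passed as higher and 1 as lower in each of the efflux and fatty acid synthesis lists, 1 as higher and 2 as lower among glycerolipid genes, and 2 as higher and 0 as lower among oxidation genes.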

How the data were processed

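Expression was measured on Affymetrix arrays with 45101 probe sets. The authors deposited 1 intensity per probe set and array as whole numbers (1 to 12861), taken here as linear and converted to log2 here without a pseudocount. GCRMA 2.14.1 and limma 2.16.5, with R 2.8.0 and GCOS, are listed in the submitters' processing notes, without their roles; no genome build is given there. Low values are coarse because of rounding, and the number of arrays limits the precision. Columns were assigned to genotype and replicate by sample title.

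Of all probe sets, 34958 had 1 gene in the platform annotation, 932 several and 9211 none; symbols were updated by gene identifier (34754 matched RefSeq, GRCm38.p6). The 20841 non-control probe sets with log2 of at least 4 on at least 3 of 6 arrays were tested with limma 3.58.1 in R 4.3.3 (lmFit, eBayes, two-sided, Benjamini-Hochberg over all of them, threshold 0.05). A gene was read on its tested probe set with the highest mean. Intervals are 95% from the moderated SE of the fit without a block. The procedure was tested on simulated data.

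Deviations from genotype means correlated at 0.427, 0.354 and 0.595 between same-numbered arrays (other pairs -0.488 to 0.113), each over 0.1, so the numbers were taken to pair the samples; what a number means is not in the labels. No 2 arrays shared more than 1.79% of tested values. Every gene of the set is named; from each other lipid list the gene with the largest difference is named where none passed. The set, lists, tests and alternatives (filter, pseudocount, quantile normalization, moderation, blocks, left-out arrays, averaged probe sets) were chosen with earlier results of these data known.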

Additional observations from a re-analysis of the deposited data

How the results depend on the processing

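With 3 arrays per genotype and no block, many intervals were wider than the differences, and only 19 of 36 excluded a 2-fold change in both directions. The width also depended on leaving out the block. With the replicate block the SE was 0.22 against 0.43 for Cyp51, 0.22 against 0.42 for Dhcr7, 0.20 against 0.45 for Hsd17b7 and 0.22 against 0.41 for Nsdhl. Intervals were not computed from that fit. Calls among all genes numbered 434, and 247 with no filter, 253 with a log2 filter of 6, 22 without moderation, 1123 with the replicate block, 687 with replicate 3 as a block and 184 to 373 without 1 array. Sterol genes called were 0, but 2 with the replicate block (Tm7sf2, Ebp) and 1 (Tm7sf2) each with replicate 3 as a block, with the filter of 6 and with averaged probe sets. The filter of 6 kept Tm7sf2 only through its DKO arrays, and averaging could not change the values of its 1 tested probe set. Fatty acid genes called were 0, but 3 with the replicate block and 0 to 1 without 1 array (Me1, without wild-type replicate 1). The replicate block changed no other call among the 36 genes. Regulators called were 0 under all 15 alternatives. The other settings (pseudocount, quantile normalization, replicates 1 and 2 only) called 0 in each group. Signs turned on replicates 1 and 2 alone for Insig2 (-0.12), Cyp51 (-0.13), Elovl5 (-0.027) and Scd2 (-0.048), and with averaged probe sets for Hmgcs1 (-0.049), Acss2 (0.082) and Elovl1 (-0.012). Without 1 array, differences crossed 0 for Acly (-0.29 to 0.017), Cyp51 (-0.41 to 0.36), Dhcr7 (-0.057 to 0.68), Elovl1 (-0.14 to 0.34), Elovl5 (-0.083 to 0.20), Hsd17b7 (-0.17 to 0.61), Idi1 (-0.33 to 0.18), Insig1 (-0.27 to 0.065), Insig2 (-0.17 to 0.33), Pmvk (-0.18 to 0.72) and Scd2 (-0.12 to 0.11). The filter, moderation and blocks change which probe sets are tested or the error, not the fitted differences of the genes kept; other causes were not tested.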
